A study of Mus musculus with 16 samples.

Results

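Pericytes and vascular smooth muscle cells are the mural cells that wrap the vessels of the heart, and 10 of their genes were followed here across 4 groups of mouse hearts. The genes were chosen by symbol, through their Ensembl identifiers, and made up 10 of the 22372 genes in the table of normalized counts. All 10 passed the filter on low values and were among the 13331 genes tested. The pericyte genes were Rgs5, Pdgfrb, Cspg4, Abcc9 and Notch3, and the contractile genes of smooth muscle were Myh11, Tagln, Cnn1, Smtn and Lmod1.

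RNA was sequenced from pieces of heart ventricle of C57BL/6J mice that were 10 to 12 weeks old at the start, with 4 libraries in each group. Mice had transverse aortic constriction (TAC), in which a suture narrows the aortic arch and the left ventricle has to pump against a raised pressure, or a sham operation without the constriction. THZ1, a covalent inhibitor of the transcription kinases CDK7, CDK12 and CDK13, was injected into the peritoneum at 10 mg/kg per injection (b.i.d.) from postoperative day 1 to day 60, and vehicle was given to the control mice. The groups were thus the sham hearts without and with THZ1 (Sham-Veh and Sham-THZ1) and the constricted hearts without and with it (TAC-Veh and TAC-THZ1), and the comparisons ask how mural cell genes differed with pressure overload, with THZ1 under pressure overload and with THZ1 alone. Libraries held 21.4 to 35.8 M recovered reads, of which mitochondrial genes took 33.2% to 44.7%.

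Pericytes sit in the basement membrane of capillaries and depend on platelet-derived growth factor signals from the endothelium, which they receive through the receptor made by Pdgfrb. Smooth muscle cells wrap arteries and arterioles, contract through a dedicated myosin (Myh11) and actin-binding proteins (Tagln, Cnn1, Smtn, Lmod1), and lose these proteins when they leave the contractile state. Their contractile genes are classical targets of serum response factor and its cofactor myocardin, which act at CArG boxes. NOTCH3 is the Notch receptor of mural cells and keeps smooth muscle mature in small arteries. In whole ventricle, fewer cells of a type and less RNA per cell cannot be told apart, and this holds for every difference below.

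The 10 genes differed widely in level. Per kilobase of exon, Rgs5 (chr1:171585632-171625944, NCBIM37), a regulator of G-protein signaling that marks pericytes, was the most abundant in Sham-Veh hearts, at 3703 ± 169 normalized counts per kb (SD, n = 4). Abcc9, the sulfonylurea receptor subunit of ATP-sensitive potassium channels, followed at 1308 ± 126, and Smtn, which encodes smoothelin, at 908 ± 51.2. Pdgfrb at 439 ± 25.1 and Tagln, which encodes the actin-binding protein transgelin, at 379 ± 107 did not differ beyond their spread. The same held for Notch3 at 155 ± 20.2 and Myh11 at 149.6 ± 39.5. Cspg4, the NG2 proteoglycan of pericytes, reached 101 ± 12.9. Cnn1 (calponin) at 21.0 ± 9.43 and Lmod1 (leiomodin) at 19.3 ± 5.78 normalized counts per kb were the lowest and did not differ beyond their spread. Cnn1 and Lmod1 rested on 24 to 78 and 32 to 102 recovered reads per library, against 286 or more for each of the others.

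Under pressure overload, 5 of the 10 genes were lower in TAC-Veh than in Sham-Veh hearts, namely Rgs5, Abcc9, Notch3, Myh11 and Smtn. Tagln moved the other way and was higher, and Pdgfrb, Cspg4, Cnn1 and Lmod1 did not pass the test. Calls were made with limma on log2(normalized count + 1) across all genes tested, at a Benjamini-Hochberg adjusted p under 0.05. Among all genes tested, 23.6% were called lower and 21.4% higher in this comparison, so a share of genes of that size moved in either direction. The median log2 fold change of the 10 genes was -0.43, beside -0.0030 over all genes tested. A fall of log2 1 or more with adjusted p under 0.05 was reached by 3.37% of genes tested and, among the 10, by Abcc9.

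Abcc9 (ENSMUSG00000030249, chr6:142536382-142650794, NCBIM37) had the largest difference of the 10. It stood at 9083, 10831, 10512 and 9006 normalized counts in Sham-Veh hearts and at 3321, 3363, 4391 and 5865 in TAC-Veh hearts, so the groups did not overlap. This was a log2 difference of -1.25 (adjusted p = 3.16e-06, SE 0.13). Smtn (ENSMUSG00000020439, chr11:3417526-3440615) was at 3667, 4075, 3980.4 and 4189.9 in Sham-Veh and at 2057, 1917, 2261 and 2572 in TAC-Veh hearts, again without overlap. The difference was -0.86 on the log2 scale (adjusted p = 1.21e-06, SE 0.083).

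Myh11 (ENSMUSG00000018830, chr16:14194620-14291501), the smooth muscle myosin heavy chain, was at 1142, 917, 659 and 1250.0 normalized counts in Sham-Veh hearts and at 498, 355, 426 and 828 in TAC-Veh hearts. The fourth TAC-Veh library lay inside the sham range and the other 3 lay below it. This was a log2 difference of -0.95 (adjusted p = 0.00295, SE 0.23). Notch3 (ENSMUSG00000038146, chr17:32257765-32303825) was at 1254, 1187, 1085 and 1468 in Sham-Veh hearts and at 521, 765, 689 and 1246 in TAC-Veh hearts, with the same library at the sham level. The difference was -0.70 on the log2 scale (adjusted p = 0.0048, SE 0.18). Rgs5 was at 17806, 16794, 15919.9 and 16864 in Sham-Veh hearts and at 11895, 11218, 12171 and 17047 in TAC-Veh hearts, where replicate 4 again lay within the sham range. The difference was -0.38 on the log2 scale (adjusted p = 0.00458, SE 0.098).

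Tagln (ENSMUSG00000032085, chr9:45737711-45744141) rose by 0.80 on the log2 scale (SE 0.25, adjusted p = 0.0168), from 734, 516, 403 and 753 normalized counts in Sham-Veh hearts to 1385, 1539, 672 and 746 in TAC-Veh hearts. TAC-Veh replicates 1 and 2 lay above every Sham-Veh library, and replicates 3 and 4 lay inside the sham range. The call was lost without Sham-Veh replicate 3 (adjusted p = 0.0644), without TAC-Veh replicate 1 (adjusted p = 0.0528), without TAC-Veh replicate 2 (adjusted p = 0.0656) and when only the 2 groups were fitted (adjusted p = 0.0556). The adjusted p of the remaining alternatives stayed under 0.05. Transgelin is also made by myofibroblasts, and all 6 myofibroblast markers measured (Postn, Fn1, Cthrc1, Thbs4, Fap and Comp) rose. Their summed level was 59820, 86030, 25284 and 29165 normalized counts in TAC-Veh replicates 1 to 4, against 2742 to 3442 in Sham-Veh hearts. The 2 libraries with the highest Tagln were thus the 2 with the highest sum. The part of myofibroblasts in the Tagln result was not tested.

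Cspg4 showed no call with TAC, with 749, 834, 717 and 950.1 normalized counts in Sham-Veh and 661, 1005, 724 and 1109.9 in TAC-Veh hearts (log2 fold change 0.08, 95% interval -0.21 to 0.37). Pdgfrb ranged from 2275 to 2593 in Sham-Veh and from 1737 to 2639.7 in TAC-Veh hearts (log2 fold change -0.18, adjusted p = 0.134). Lmod1 ranged from 53.9 to 106 and from 39.6 to 86.9 (log2 fold change -0.48, adjusted p = 0.104). These 3 genes had their highest TAC-Veh value in replicate 4, and Lmod1 was called lower without Sham-Veh replicate 3 (adjusted p = 0.0495) and with quantile normalization (adjusted p = 0.0381). Cnn1 ranged from 24.8 to 70.1 in Sham-Veh and from 47.6 to 66.4 in TAC-Veh hearts (log2 fold change 0.32, adjusted p = 0.364), with an interval of -0.26 to 0.91.

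**Figure D1:**
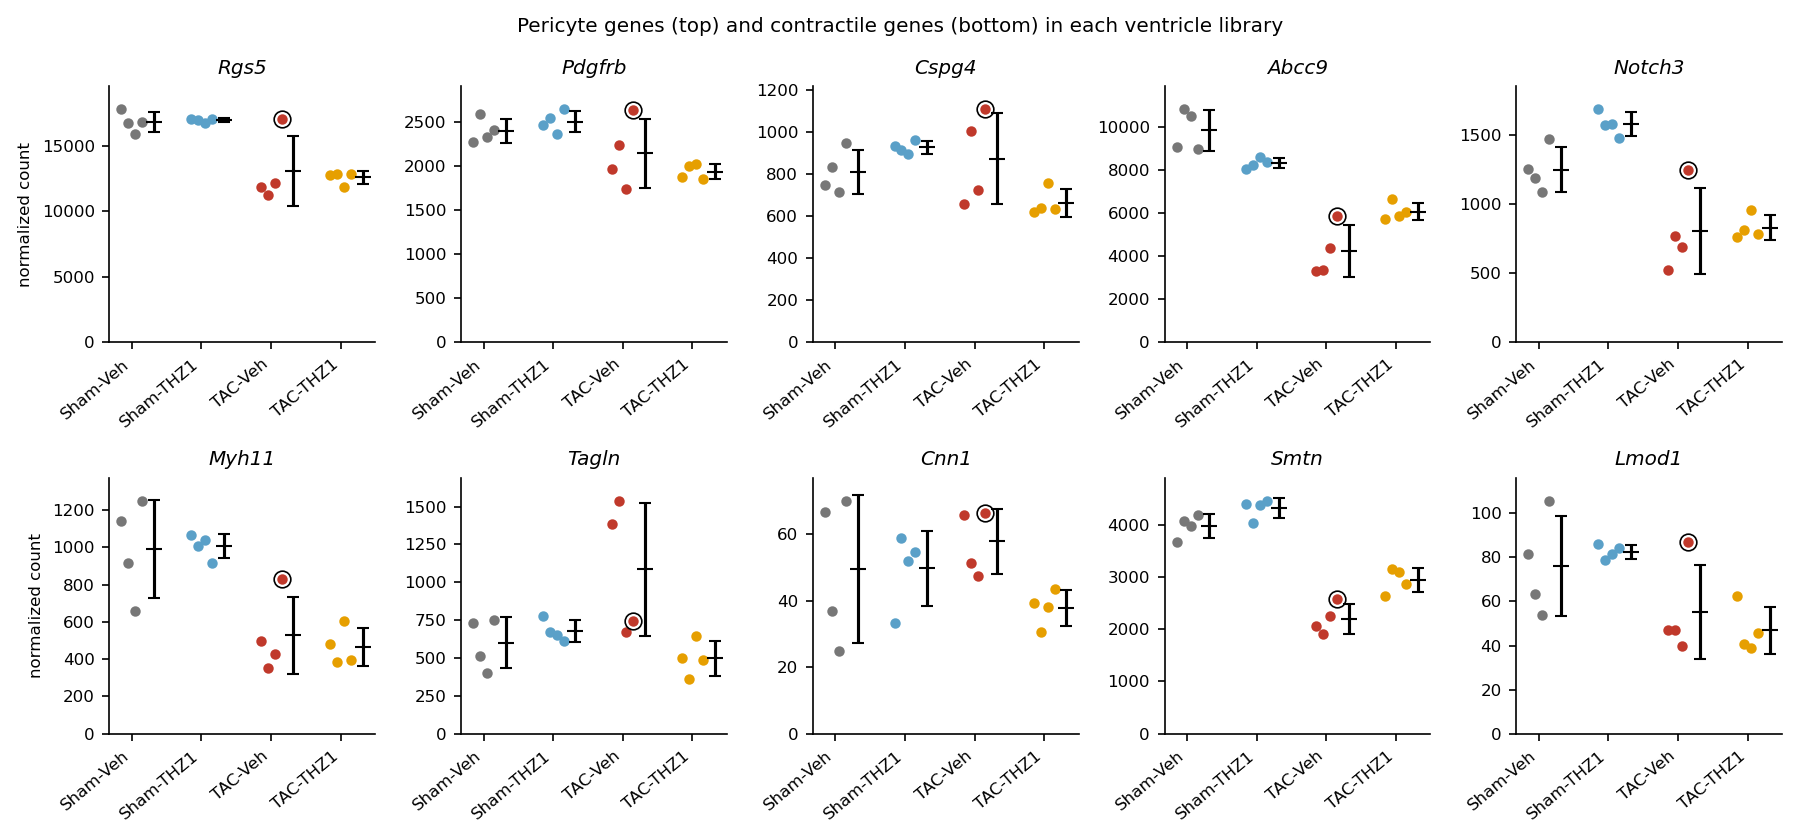
Normalized count (vertical axis, from 0) of the 10 genes in each library of the 4 groups (horizontal axis); bars beside the points give the mean and SD of 4 libraries, and the ringed point is TAC-Veh replicate 4. Abcc9 and Smtn lay lower in all TAC-Veh libraries than in any Sham-Veh library, while the ringed library lay at 17047 for Rgs5, within the Sham-Veh range of 15919.9 to 17806.

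TAC-Veh replicate 4 stood apart from the other 3 TAC-Veh libraries. It had the highest value of the 4 for 9 of the 10 genes, the exception being Tagln. It lay 0.96 above the mean of the other 3 on the log2 scale for Myh11 and Lmod1, 0.92 for Notch3 and 0.54 for Rgs5. Its myofibroblast sum of 29165 and its summed cardiomyocyte markers of 1055101, against 1435619 to 1539477 in Sham-Veh hearts, lay with the TAC-Veh group. Without this library, 8 of the 10 genes were called, 7 of them lower, where 25.3% of all genes tested were called lower and 22.9% higher. Pdgfrb (log2 fold change -0.29, adjusted p = 0.00618) and Lmod1 (log2 fold change -0.72, adjusted p = 0.00901) were then called lower in addition.

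**Figure D2:**
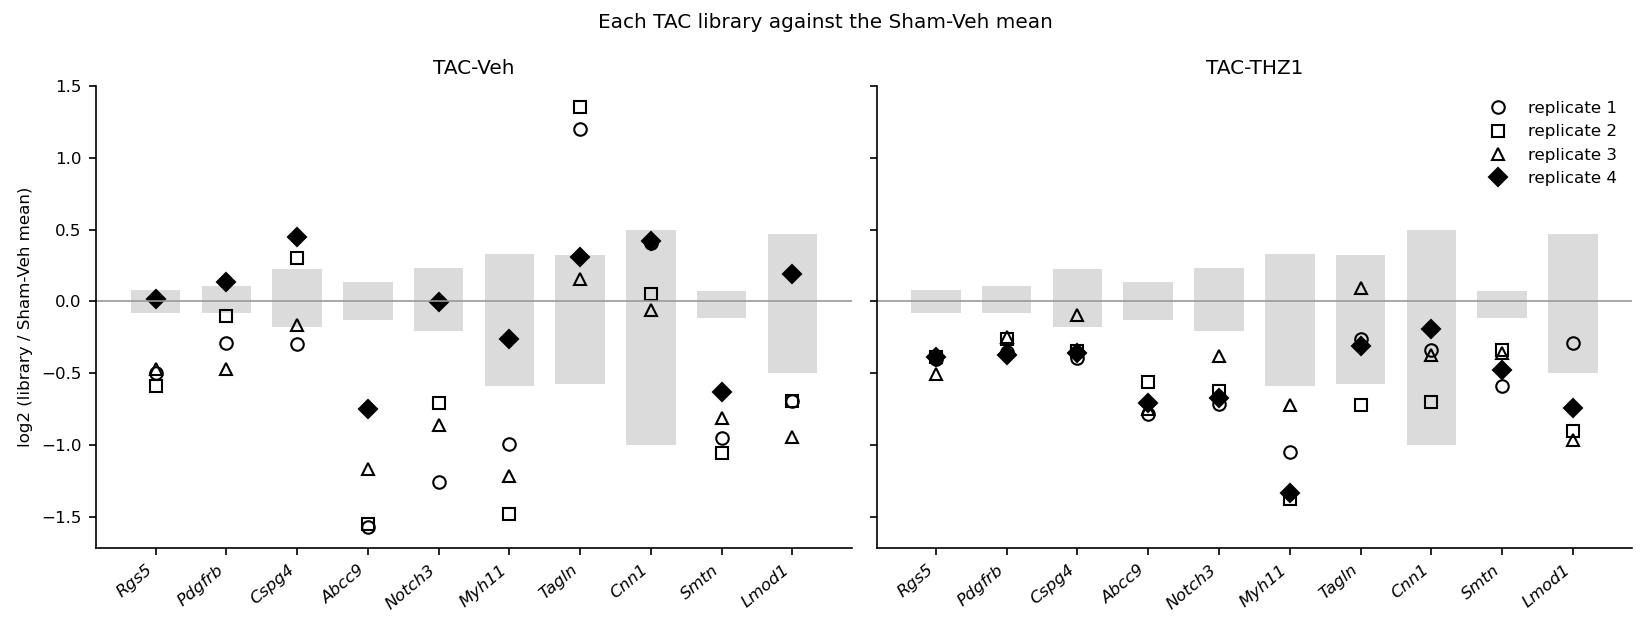
Log2 ratio of each TAC-Veh (left) and TAC-THZ1 (right) library to the Sham-Veh mean (vertical axis) for the 10 genes (horizontal axis), with the grey boxes spanning the 4 Sham-Veh libraries and symbols marking replicates 1 to 4. TAC-Veh replicate 4 (filled) lay above replicates 1 to 3 for Rgs5, Notch3, Myh11 and Lmod1, and the 4 TAC-THZ1 libraries lay close together for Rgs5, Pdgfrb and Abcc9.

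A property of the transcripts moved with the same libraries. Among all genes tested, the median log2 ratio to the Sham-Veh mean fell with exon length in 3 of the 4 TAC-Veh libraries and in every TAC-THZ1 library. Between the longest and the shortest of 6 equal classes of exon length, the median differed by -0.44, -0.17 and -0.35 in TAC-Veh replicates 1 to 3 and by 0.021 in replicate 4. It differed by -0.47, -0.40, -0.37 and -0.38 in the TAC-THZ1 libraries and by -0.086 to 0.017 in the sham libraries. Abcc9 (7538 bases of exon), Notch3 (8044), Cspg4 (8050) and Myh11 (6632) are longer than 82.3% or more of the genes tested, and Tagln (1586 bases) is longer than 11.6%. With values centred within 20 classes of exon length, an alternative chosen after seeing the data, the 6 calls of TAC-Veh against Sham-Veh all remained, where 22.9% of all genes tested were called lower and 21.6% higher. The log2 fold change was then -1.13 for Abcc9, -0.57 for Notch3, -0.84 for Myh11, -0.36 for Rgs5, -0.83 for Smtn and 0.70 for Tagln.

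**Figure D3:**
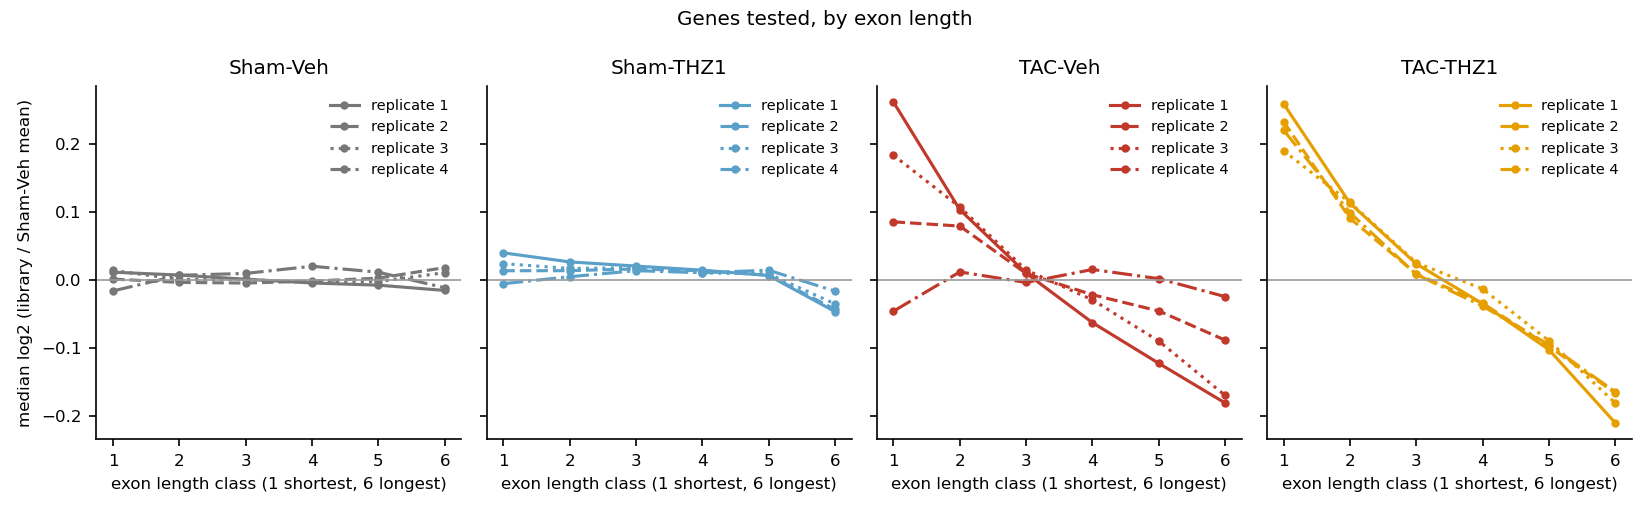
Median log2 ratio to the Sham-Veh mean (vertical axis) of all 13331 genes tested in 6 equal classes of exon length, from shortest to longest (horizontal axis), with 1 line per library in each of the 4 groups. The lines fall in TAC-Veh replicates 1 to 3 and in all 4 TAC-THZ1 libraries, and TAC-Veh replicate 4 stays near the sham lines.

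With THZ1 under pressure overload, Abcc9 and Smtn rose, Tagln and Cspg4 fell, and the other 6 genes did not pass the test. Over all genes tested, 15.1% were called higher and 14.2% lower in TAC-THZ1 than in TAC-Veh hearts, against 2 of 10 in each direction here. The median log2 fold change of the 10 genes was -0.13, beside 0.015 over all genes tested. A fall of log2 0.89 or more with adjusted p under 0.05 was reached by 3.62% of genes tested and by Tagln among the 10.

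Abcc9 was at 5731, 6664, 5876 and 6032 normalized counts in TAC-THZ1 hearts. All but the first lay above every TAC-Veh library, whose highest value was 5865, and all lay below the Sham-Veh range. The log2 fold change against TAC-Veh was 0.56 (SE 0.13, adjusted p = 0.00571), and the call was lost when only these 2 groups were fitted (adjusted p = 0.0598). Smtn was at 2645, 3151, 3104 and 2858, above all TAC-Veh libraries, a log2 difference of 0.42 (adjusted p = 0.00164, SE 0.083). Abcc9 makes channel subunits for heart muscle as well as for vessels by alternative splicing, which a gene count cannot separate. Of all genes tested, 23.6% were called lower with TAC and 15.1% higher with THZ1 under TAC. Of 8 cardiomyocyte markers, 4 were lower with TAC and 5 were higher with THZ1 under TAC. Their summed level ranged from 1435619 to 1539477 in Sham-Veh, from 799799 to 1137583 in TAC-Veh and from 1257364 to 1563742 in TAC-THZ1 hearts. The part of cardiomyocytes in the Abcc9 and Smtn results was not tested.

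Tagln fell by 1.06 on the log2 scale (SE 0.25, adjusted p = 0.00567) to 501, 364, 642 and 484 normalized counts, below all 4 TAC-Veh libraries and inside the Sham-Veh range in all but replicate 2. Of the 6 myofibroblast markers, 5 fell, and their sum was 3447 to 8836 in TAC-THZ1 hearts. Cspg4 fell by 0.37 on the log2 scale (SE 0.14, adjusted p = 0.0493), to 619, 639, 759 and 634, which overlapped the TAC-Veh range. That call stood at the threshold. It was lost under 16 of the alternatives tried, with an adjusted p of 0.147 without TAC-Veh replicate 4 and of 0.155 without replicate 2, the 2 TAC-Veh libraries with the highest Cspg4. Cnn1 was at 39.3, 30.6, 38.2 and 43.5 in TAC-THZ1 hearts, below every TAC-Veh library, but missed the threshold (log2 fold change -0.59, adjusted p = 0.117).

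Rgs5, Notch3 and Myh11, all lower with TAC, did not pass the test for THZ1 under TAC. Rgs5 was at 12772, 12883, 11849 and 12868 normalized counts in TAC-THZ1 hearts, a log2 fold change of -0.04 against TAC-Veh with a 95% interval of -0.24 to 0.17. Notch3 was at 762, 809.7, 959 and 782, a log2 fold change of 0.11 with an interval of -0.27 to 0.49. Without TAC-Veh replicate 4 the Notch3 difference was 0.34 and passed the test (adjusted p = 0.0431). Myh11 was at 479, 382, 602 and 393, a log2 fold change of -0.13 with an interval of -0.61 to 0.35. These intervals leave room for changes in either direction. Lmod1 (-0.19, adjusted p = 0.581) and Pdgfrb (-0.13, adjusted p = 0.327) did not pass the test either, and Pdgfrb did so only without TAC-Veh replicate 3 (log2 fold change -0.22, adjusted p = 0.0475).

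**Figure D4:**
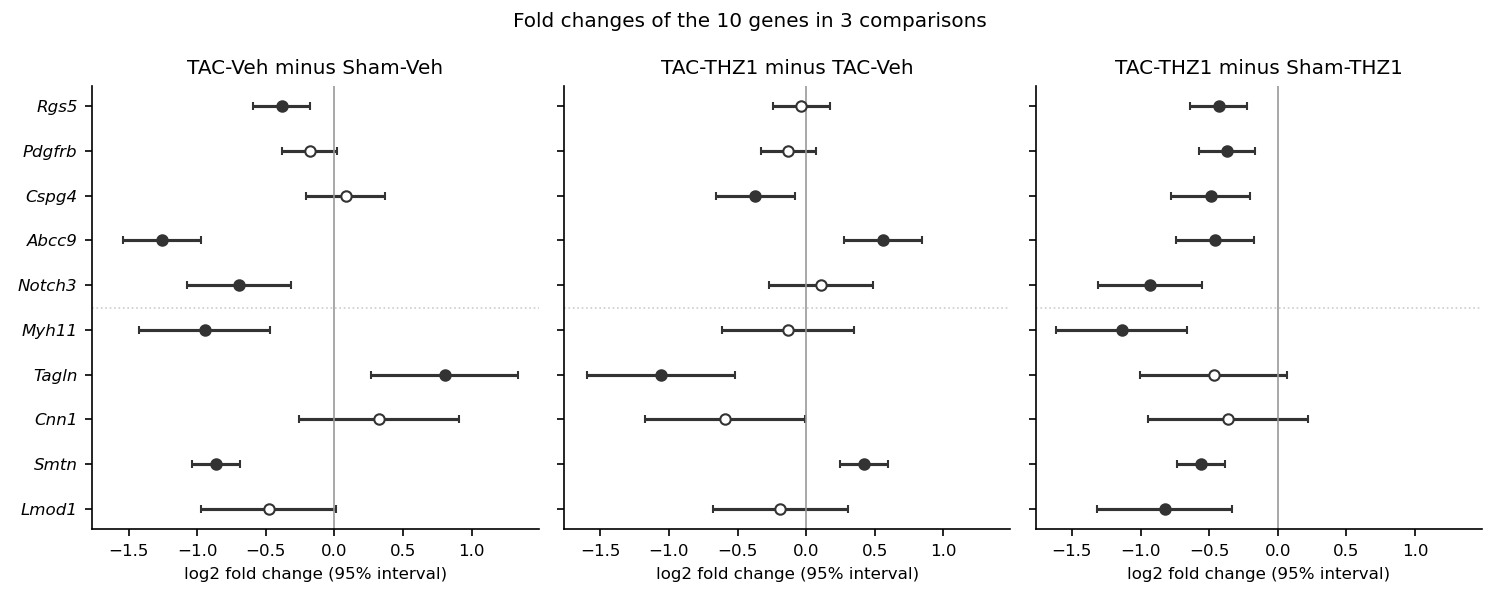
Log2 fold change (horizontal axis) of each of the 10 genes (vertical axis, pericyte genes above the dotted line) in 3 comparisons, with 95% intervals from limma; filled points have an adjusted p under 0.05. Abcc9 and Smtn lie left of 0 with TAC and right of 0 with THZ1 under TAC, Tagln does the reverse, and all 10 points lie left of 0 between TAC-THZ1 and Sham-THZ1.

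Among THZ1-treated hearts, 8 of the 10 genes were lower with TAC, against 12.8% of all genes tested that were called lower and 11.4% called higher between TAC-THZ1 and Sham-THZ1. All 5 pericyte genes were among the 8, with log2 fold changes of -0.43 for Rgs5, -0.37 for Pdgfrb, -0.49 for Cspg4, -0.46 for Abcc9 and -0.93 for Notch3. Of the contractile genes, Myh11 differed by -1.14, Lmod1 by -0.83 and Smtn by -0.56. How often these groups separated among all genes tested was not counted, so the next values add no support beyond the calls. For each of these 8 genes the highest TAC-THZ1 library lay below the lowest Sham-THZ1 library. Rgs5, for example, was at 17072, 16956, 16781 and 17072 in Sham-THZ1 hearts. Notch3 was at 1684, 1572, 1576 and 1476, and Myh11 at 1065, 1009, 1040.4 and 915. Tagln (log2 fold change -0.47, adjusted p = 0.188) and Cnn1 (-0.36, adjusted p = 0.353) did not pass the test.

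All TAC-THZ1 libraries carried the trend with exon length and the Sham-THZ1 libraries did so by at most -0.086. Centred on exon length, 7 of the 10 genes were still called lower, against 9.15% of all genes tested, with Abcc9 at -0.32 (adjusted p = 0.0672). With GC share included, Cspg4 was also no longer called (log2 fold change -0.22, adjusted p = 0.135) and 6 genes remained, against 8.93% of all genes tested. Among single libraries, Abcc9 lost its call without Sham-THZ1 replicate 3 or 4 or TAC-THZ1 replicate 1 or 3 (adjusted p 0.0504 to 0.0624), Cspg4 without TAC-THZ1 replicate 1 (adjusted p = 0.0513) and Lmod1 without TAC-THZ1 replicate 3 (adjusted p = 0.0506). Rgs5 (-0.38 and -0.45), Notch3 (-0.80 and -0.65), Myh11 (-1.01 and -0.99) and Smtn (-0.52 and -0.39) were called under both centrings.

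Against Sham-Veh hearts, 7 of the 10 genes were lower in TAC-THZ1 hearts, where 11.8% of genes tested were called lower and 10.9% higher. These were Rgs5 (log2 fold change -0.42), Pdgfrb (-0.31), Abcc9 (-0.70), Notch3 (-0.59), Myh11 (-1.08), Smtn (-0.44) and Lmod1 (-0.67). Only Rgs5, Abcc9, Myh11 and Smtn kept the call when values were centred on exon length, where 6.09% of all genes tested were called lower. In addition, 4 genes were called without Sham-Veh replicate 2, without Sham-Veh replicate 4 and without TAC-THZ1 replicate 4. Of the 13331 genes tested, 955, 1081 and 1259 were called lower in these fits, in that order, against 1577 with all libraries. Cspg4 (-0.29), Tagln (-0.25) and Cnn1 (-0.27) did not pass the test.

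In sham hearts, THZ1 changed none of the 10 genes by limma over all groups, and none had an unadjusted p under 0.05. edgeR and DESeq2 on the recovered reads also called 0 of the 10. The background was low, with 0.0675% of genes tested called in either direction. The groups did not overlap for 2 genes. The share of all genes tested without overlap was not counted, so this separation adds no support. Notch3 was higher in every Sham-THZ1 library (1476 to 1684) than in any Sham-Veh library (1085 to 1468), and Abcc9, at 8051, 8231, 8619 and 8380.2, was lower than in any Sham-Veh library. When only the sham libraries were fitted, 2.15% of all genes tested were called higher and 1.34% lower, and both genes were called, at log2 fold changes of 0.34 for Notch3 (adjusted p = 0.0245) and -0.24 for Abcc9 (adjusted p = 0.0326).

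For Abcc9 and Tagln, THZ1 had a different effect in TAC than in sham hearts. This interaction, the log2 effect of THZ1 in TAC minus that in sham, was called higher for 4.4% and lower for 5.62% of genes tested. For Abcc9 it was 0.80 (SE 0.19, adjusted p = 0.0173), and its adjusted p was under 0.05 in all 31 alternative fits. For Tagln it was -1.27 (SE 0.36, adjusted p = 0.0355), with an adjusted p of 0.0544 to 0.077 when any of 9 single libraries was left out. Those were Sham-Veh replicates 2 and 3, all 4 Sham-THZ1 replicates, TAC-Veh replicate 2 and TAC-THZ1 replicates 2 and 4. Cspg4 (-0.57, adjusted p = 0.0673) and Smtn (0.30, adjusted p = 0.108) missed the threshold. Cspg4 passed it without TAC-Veh replicate 1 (adjusted p = 0.0175) or 3 (adjusted p = 0.0285), and Smtn without TAC-Veh replicate 4 (adjusted p = 0.0246). Cspg4 also passed with library weights (adjusted p = 0.0133), with DESeq2 (adjusted p = 0.0317), centred on exon length (adjusted p = 0.0405) and, at the threshold, on length and GC share (adjusted p = 0.04995). Smtn also passed in the last of these (adjusted p = 0.0182).

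The ratio of Tagln to Myh11 within each library was computed as well, a choice made after the values were seen. Tagln per Myh11 was 0.563 to 0.643 in Sham-Veh and 0.629 to 0.728 in Sham-THZ1 hearts. In TAC-Veh hearts it was 2.78, 4.34, 1.58 and 0.901, and in TAC-THZ1 hearts 1.05, 0.953, 1.07 and 1.23. Both TAC groups lay above both sham groups with no overlap. Tagln and Myh11 already had opposite calls with TAC when they were picked, so this separation is no further support for those calls. Tagln is short and Myh11 long, so the ratio moves with the trend in exon length. Between TAC-THZ1 and Sham-THZ1 the log2 fold change of Tagln exceeded that of Myh11 by 0.67, by 0.37 after centring within classes of exon length and by 0.32 after centring on length and GC share. With TAC alone it did so by 1.75, 1.54 and 1.52. In the sham groups the ratio varied little, although Tagln alone ranged from 403 to 753 in Sham-Veh hearts. There, Myh11, Tagln, Cnn1 and Lmod1 all had their 2 highest values in replicates 1 and 4 and their 2 lowest in replicates 2 and 3.

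Over the 16 libraries, 27 of the 45 pairs of genes had a Pearson correlation of log2 values above 0.5. The pairs share libraries and groups, and the values describe these libraries only. Abcc9 and Smtn were the closest pair (r = 0.94), followed by Rgs5 and Myh11 (r = 0.91). All 7 pairs with a negative value included Tagln or Cnn1, the lowest being Abcc9 with Tagln (r = -0.62). After subtraction of group means the lowest pair was again Abcc9 with Tagln (r = -0.80), and the highest was Cspg4 with Notch3 (r = 0.87).

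The genes whose log2 profile over the 16 libraries was most like the mean of the pericyte genes, among the 10309 genes whose mean reached 100 normalized counts, were not mural markers. They were Nfix (r = 0.990), Arid1a (0.989), Prrc2b (0.988), Setd1b (0.988) and Nfic (0.985), among which Nfix and Nfic are nuclear factor I transcription factors, Arid1a a subunit of the SWI/SNF chromatin remodeler and Setd1b a histone methyltransferase. For example, Setd1b stood at 503 ± 84.2 and 618 ± 33.8 normalized counts (SD, n = 4) in the Sham-Veh and Sham-THZ1 groups and at 252 ± 144 and 248 ± 38.8 in the TAC-Veh and TAC-THZ1 groups. For the contractile genes the closest included Ctif (r = 0.928), Ppp1r15b (0.874), Maml1 (0.874) and Cdc42bpb (0.871). Maml1 encodes a coactivator of Notch.

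Promoter sequence was available in RefSeq (GRCm38.p6) for 7 of the 10 genes, Rgs5, Cspg4, Abcc9, Notch3, Cnn1, Smtn and Lmod1, as windows of 250 bases before to 50 after the start. The 150 bases before the start are shown for the 2 genes that rose with THZ1 under TAC, Abcc9 and Smtn, and for 2 that were lower with TAC and were not called with THZ1, Rgs5 and Notch3, 5′ to 3′ on the strand of the gene. Capitals mark GC boxes (GGGCGG, or CCGCCC on the other strand).
Abcc9, chr6:142702275-142702424, minus strand: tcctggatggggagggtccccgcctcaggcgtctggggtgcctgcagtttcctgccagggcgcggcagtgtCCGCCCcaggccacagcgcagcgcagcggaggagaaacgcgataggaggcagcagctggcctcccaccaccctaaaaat
Smtn, chr11:3539293-3539442, minus strand: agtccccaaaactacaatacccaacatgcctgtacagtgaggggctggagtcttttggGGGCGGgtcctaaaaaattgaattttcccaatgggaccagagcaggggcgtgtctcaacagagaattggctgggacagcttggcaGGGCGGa
Rgs5, chr1:169655351-169655500, plus strand: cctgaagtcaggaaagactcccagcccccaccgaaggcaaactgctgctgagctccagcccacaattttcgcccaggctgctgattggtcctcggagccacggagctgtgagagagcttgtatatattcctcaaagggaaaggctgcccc
Notch3, chr17:32166891-32167040, minus strand: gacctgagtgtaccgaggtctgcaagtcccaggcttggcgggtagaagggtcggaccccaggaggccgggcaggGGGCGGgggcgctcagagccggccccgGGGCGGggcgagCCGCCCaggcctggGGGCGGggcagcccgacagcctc
Notch3 held 4 GC boxes and a G or C at 77.3% of these bases, Smtn held 2 GC boxes, Abcc9 held 1 and Rgs5 held 0. GC boxes were in 5 of the 7 windows and in 35.7% of the 32851 windows of all genes. The CArG box, the motif of serum response factor, was in 0 of the 7 windows and in 1.63% of all windows. The core of the RBPJ site through which Notch acts (TGGGAA, or TTCCCA on the other strand) was in the windows of Abcc9 and Smtn and in 25.6% of all windows.

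Other pericyte genes were described from a list of 12. For this and the following lists, 23.6% of all genes tested were called lower and 21.4% higher with TAC. The shares were 14.2% and 15.1% with THZ1 under TAC, and 12.8% and 11.4% between TAC-THZ1 and Sham-THZ1. With TAC, 5 of the 12 pericyte genes were lower, namely Vtn, Kcnj8, Ednra, Gucy1a3 and Anpep, and Rgs4 was higher. With THZ1 under TAC, 4 rose and Rgs4 fell. Vtn, which encodes vitronectin, was at 768, 732, 805 and 736 normalized counts in Sham-Veh, 479, 460.5, 616 and 606 in TAC-Veh and 852, 743, 896 and 720.4 in TAC-THZ1 hearts. It differed by -0.50 with TAC and by 0.58 with THZ1 under TAC. Ednra, the endothelin receptor of mural cells, differed by -0.42 and 0.51, and Gucy1a3, a subunit of the nitric oxide receptor guanylate cyclase, by -0.76 and 0.45. Between TAC-THZ1 and Sham-THZ1, limma called 0 of the 12, as did edgeR and DESeq2, and 2 had an unadjusted p under 0.05, while all 5 pericyte genes followed here were lower. Centred on exon length, 1 of the 12 and 4 of the 5 were called, and with GC share included Cspg4 of the 5 also lost its call. The difference between the 2 lists was not tested.

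The genes of ATP-sensitive potassium channels moved with Abcc9. Kcnj8, the pore subunit paired with it in mural cells, was at 1000.3, 1105, 1082 and 1124 normalized counts in Sham-Veh, 754, 770.1, 972 and 995 in TAC-Veh and 1147, 1142, 1047 and 1106 in TAC-THZ1 hearts. It fell by 0.31 on the log2 scale with TAC and rose by 0.36 with THZ1 under TAC. Kcnj11, the pore subunit of ventricular heart muscle, fell by 0.64 and rose by 0.65, and Abcc8 fell by 0.48 and rose by 0.27. Between TAC-THZ1 and Sham-THZ1, limma, edgeR and DESeq2 called 0 of these 3 and 1 had an unadjusted p under 0.05. Abcc9 was lower there by a log2 difference of -0.46, a call that was lost on exon length centring and without any of 4 single libraries, as given above. The difference between Abcc9 and these 3 genes was not tested.

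Of 12 other contractile genes of smooth muscle, 2 were lower with TAC, Mylk (log2 fold change -0.61), which encodes myosin light chain kinase, and Ppp1r12b (-0.49), a subunit of the myosin phosphatase. Des, which encodes the muscle intermediate filament desmin and is abundant in cardiomyocytes, was higher (0.89). These counts with TAC did not exceed the shares of all genes tested. With THZ1 under TAC, Cald1 (-0.72), Itga8 (-0.52) and Des (-0.43) fell and none rose. In TAC-THZ1 against Sham-THZ1 hearts, 6 of the 12 were lower and Des was higher, against 12.8% and 11.4% of all genes tested. Mylk was at 781, 722, 643 and 909 normalized counts in Sham-Veh, at 462, 456, 411 and 692 in TAC-Veh and at 573, 443, 583 and 461 in TAC-THZ1 hearts, with its highest TAC-Veh value again in replicate 4. Acta2, smooth muscle actin, named here after its values were seen, did not pass the test with TAC (-0.07) or with THZ1 under TAC (-0.23).

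**Figure D5:**
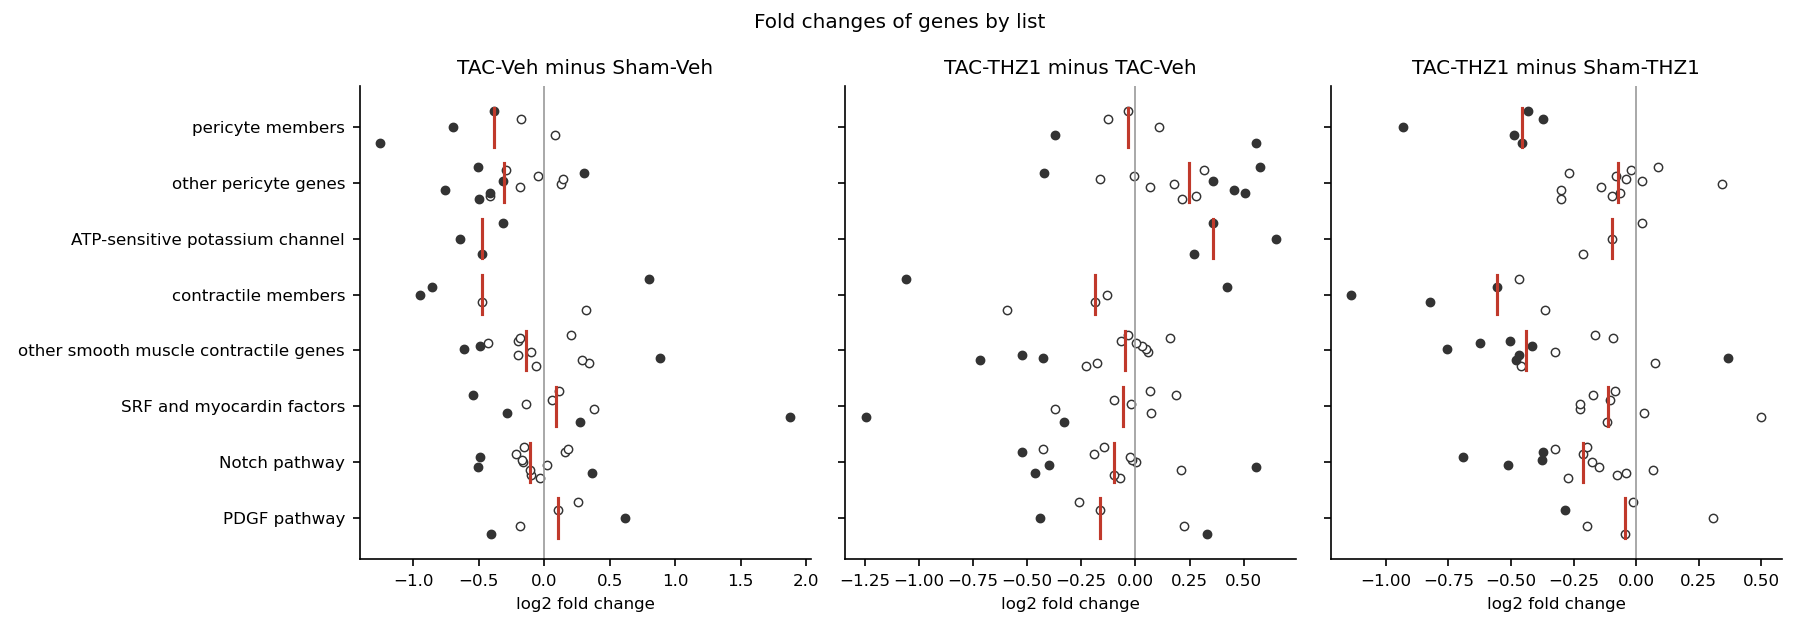
Log2 fold change (horizontal axis) of single genes in 8 lists (vertical axis) for 3 comparisons; filled points have an adjusted p under 0.05 and red lines are list medians, and the scale differs between panels. Between TAC-THZ1 and Sham-THZ1 the pericyte genes followed here have a median of -0.46 and the 12 other pericyte genes a median of -0.071. The difference between these lists was not tested.

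Of 8 factors of the serum response factor and myocardin system, Myocd itself fell by 0.54 on the log2 scale with TAC and Elk1, a cofactor that competes with it, fell by 0.28. Csrp2, a LIM protein of smooth muscle, rose by 1.88, from 156, 191, 164 and 199.9 normalized counts in Sham-Veh to 1095, 952, 437 and 399 in TAC-Veh hearts. It fell by 1.25 with THZ1 under TAC, to 279.6, 216, 409 and 231. Csrp1 rose by 0.28 and fell by 0.33. As with Tagln, TAC-Veh replicates 1 and 2 had the higher values of Csrp2.

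Of 13 other genes of the Notch pathway, Hey2 (-0.51) and Notch1 (-0.49) were lower and Hes1 (0.37) higher with TAC. These counts did not exceed the shares of all genes tested. With THZ1 under TAC, Hey2, a target of Notch in vessels and in the ventricle, rose by 0.55, and Notch4, Hes1 and Heyl fell by 0.52, 0.46 and 0.40. Between TAC-THZ1 and Sham-THZ1, Notch1 (-0.69), Heyl (-0.51), Notch4 (-0.37) and Jag2 (-0.37) were lower, beside Notch3 at -0.93. The ligands Jag1, Dll1 and Dll4 and the DNA-binding partner Rbpj passed the test in none of these 3 comparisons.

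Among 5 ligand and receptor genes of the platelet-derived growth factor pathway beside Pdgfrb, Pdgfc rose by 0.61 with TAC and fell by 0.44 with THZ1 under TAC. Pdgfa fell by 0.41 and rose by 0.33. Pdgfb, the ligand by which endothelium holds pericytes, passed neither test (-0.19 and 0.22). Of 16 other RGS genes, 13 passed the filter, and 4 were higher and 4 lower with TAC, led by Rgs11 (2.15), Rgs7 (-2.13) and Rgs17 (-1.05). With THZ1 under TAC, Rgs11 fell by 1.38, Rgs17 rose by 1.34 and Rgs4 fell by 0.42, and Rgs5 was not called.

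Markers of other cell types in the ventricle pieces differed between the groups as well. Summed marker levels were compared by exact two-sided permutation tests of 4 against 4 libraries, for which 0.0286 is the smallest possible p, with adjustment over 12 tests. The lists were chosen with earlier results of these data known, so these p-values describe the sums and are no independent support. With TAC, the sums were 1.65 times as high for 8 fibroblast markers, 16.8 times for myofibroblast, 1.54 times for macrophage, 0.681 times for cardiomyocyte and 0.471 times for Schwann cell and neural NG2 markers (each exact p = 0.0286, adjusted p = 0.0429). The endothelial sum, 22489 to 24554 in Sham-Veh and 20785 to 25582 in TAC-Veh hearts, did not pass (exact p = 0.514). Of 8 endothelial markers, Cdh5 and Kdr were lower and Egfl7 and Emcn higher with TAC. Between TAC-THZ1 and Sham-THZ1, 4 of these 8 were called lower and 2 higher, against 12.8% and 11.4% of all genes tested. Their sum was 19561 to 21175 in TAC-THZ1 and 24555 to 26253 in Sham-THZ1 hearts, a difference that was not tested. With THZ1 under TAC, the exact test gave p = 0.0286 (adjusted p = 0.0429) for the fibroblast (0.674 times), myofibroblast (0.123 times) and cardiomyocyte (1.37 times) sums. The endothelial (0.875 times, exact p = 0.0571), macrophage (0.919 times, exact p = 0.6) and Schwann cell and neural NG2 sums (1.39 times, exact p = 0.114) did not pass. No marker gene was at 0 in every library. Their part in the values of the mural genes was not tested.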

How the data were processed

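Hearts were grouped by the GEO labels, 4 libraries to a group. For its RNA libraries, the paper names a TruSeq Stranded mRNA or a KAPA mRNA HyperPrep kit, without saying which library had which. According to the sources, ventricle RNA was made into strand-marked mRNA libraries and sequenced as single ends. Reads were aligned with TopHat2 2.1.1 to mm9, counted with HTSeq and scaled with DESeq2 size factors. The authors deposited this signal as normalized counts per Ensembl gene in 1 table. All 22372 identifiers matched GENCODE vM1 (NCBIM37). Whole reads were recovered by dividing each library by the value of 1 read, and gave the depth. Replicates of a group differed by more than sampling noise (chi-square per degree of freedom 3.06 to 98.3). The labels number the replicates without naming animals, so p-values measure only the spread between these samples, which may be technical.

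Genes with at least 10 normalized counts in at least 4 libraries (13331) were tested on log2(normalized count + 1) with limma 3.58.1 in R 4.3.3 (eBayes with trend, all 16 libraries, 6 contrasts, Benjamini-Hochberg per contrast). Fold changes of low genes are understated on this scale. edgeR 4.0.16 and DESeq2 1.42.0 on the recovered reads were alternatives. On simulated counts for TAC-Veh against Sham-Veh (13331 genes, 200 changed), limma called 91.5% of the changed genes. Of the calls, 3.68% were false with limma, 4.66% with edgeR and 12.6% with DESeq2. All planted changes were of log2 1 or more, a size that only Abcc9 of the 10 genes reached with TAC. The same spread was planted in every group, unlike in the data. The share called therefore does not apply to the smaller differences reported here. Sums were tested with SciPy 1.17.1, plots drawn with Matplotlib 3.10.9.

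The 10 genes and all lists were chosen with earlier results of these data known. All 10 are named, plus the 5 genes closest to each set by correlation and, from each other list, the called genes with the 3 largest changes with TAC or with THZ1 under TAC, beside genes said to be chosen later. One gene that this rule names is not reported here. Abcc9, Notch3, Tagln, Smtn and Lmod1 overlap an annotated gene on the other strand, which strand-aware counting keeps apart.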

Additional observations from a re-analysis of the deposited data

Results flagged for a closer look

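In 4 of the 40 sets of 4 libraries (10 genes in 4 groups), the end library's gap to its neighbor took a share of the range above Dixon's 95% critical value, which chance does in about 1 in 20 sets. The shares were 0.837 for the highest TAC-Veh library of Rgs5 and 0.84 for that of Lmod1, in both cases replicate 4. They were 0.892 for the lowest TAC-THZ1 library of Rgs5 (replicate 3) and 0.858 for the highest TAC-THZ1 library of Cspg4 (replicate 3).

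By limma's interaction term, the effect of THZ1 in TAC differed from that in sham hearts by 0.80 for Abcc9 and -1.27 for Tagln (log2). The Abcc9 term was called in all 31 alternative fits, and the Tagln term in 22 of 31. Of all genes tested, 4.4% were called higher and 5.62% lower for this term.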

How the results depend on the processing

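No gene of the 10 changed direction in any comparison where it had been called, under any alternative run. The counts of genes called that moved by more than 1.5 times did so as follows. With the fold threshold of the study, 1 gene was called with TAC and 1 with THZ1 under TAC. Both were lower, where 3.37% and 3.62% of all genes tested were called lower. With only the groups compared, 2 were called with THZ1 under TAC and 2 with THZ1 in sham, and library weights gave 1 in sham. Of the 13331 genes tested, 583 were called higher and 816 lower with THZ1 under TAC in that fit, against 2019 and 1899 in the main fit. In sham, 287 were called higher and 178 lower with only the groups compared, and 254 and 259 with library weights. At adjusted p under 0.01, 4 were called between TAC-THZ1 and Sham-THZ1, 4 between TAC-THZ1 and Sham-Veh and 0 for the interaction. The share of all genes at that threshold is not reported here. Centring on exon length gave 4 between TAC-THZ1 and Sham-Veh, where 812 of all genes tested were called lower and 842 higher. Centring on length and GC share gave 4 for the interaction, where 722 were called lower and 733 higher. Both centrings were chosen after seeing the data. Leaving out 1 library at a time gave 5 to 8 with TAC, 3 to 5 with THZ1 under TAC and 0 in sham. It gave 6 to 8 between TAC-THZ1 and Sham-THZ1, 4 to 7 between TAC-THZ1 and Sham-Veh and 1 to 3 for the interaction. The calls over all genes tested moved as well. For the interaction, for example, 587 were called higher and 749 lower with all libraries, and 246 and 444 without TAC-THZ1 replicate 2. With TAC, they were 2379 and 2684 without Sham-Veh replicate 2 and 3051 and 3376 without TAC-Veh replicate 4. With THZ1 under TAC, they were 1365 and 1318 without TAC-Veh replicate 2 and 2352 and 2224 without TAC-Veh replicate 3. Between TAC-THZ1 and Sham-THZ1, they were 889 and 1089 without TAC-THZ1 replicate 1 and 1990 and 2210 without TAC-Veh replicate 1. The cause was not tested.

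Log2 values that changed sign were all of genes not called. With THZ1 in sham, Rgs5 became -0.014 with upper quartile scaling, -0.034 with quantile normalization, -0.0047 with scaling to the sum without mitochondrial genes and -0.013 centred on exon length. With library weights, Notch3 became -0.013 with THZ1 under TAC. Leaving out 1 library at a time gave ranges that crossed 0 for Cspg4 with TAC (-0.044 to 0.21), for Rgs5 (-0.10 to 0.099), Notch3 (-0.076 to 0.34), Myh11 (-0.30 to 0.11) and Lmod1 (-0.33 to 0.051) with THZ1 under TAC, for Rgs5 (-0.015 to 0.039), Myh11 (-0.12 to 0.19) and Cnn1 (-0.19 to 0.30) in sham, and for the interaction of Rgs5 (-0.11 to 0.087) and Myh11 (-0.36 to 0.050).

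Replicate numbers did not pair the libraries, since deviations from group means of same-numbered libraries correlated at -0.43 to 0.16 (24 pairs, 2 above 0.1). With the replicate number as a block, 6 genes were called with TAC, 4 with THZ1 under TAC and 0 with THZ1 in sham. There were 8 between TAC-THZ1 and Sham-THZ1, 7 between TAC-THZ1 and Sham-Veh and 2 for the interaction, all as without the block. Of all genes tested, the block gave 2767 higher and 3071 lower, 1936 and 1811, and 3 and 4 in the first 3 comparisons. In the other 3 it gave 1431 and 1610, 1373 and 1506, and 471 and 663. Cnn1, with the fewest reads, had the widest interval with TAC.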
